A study of Mus musculus with 8 samples.

Results

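A group of 10 long noncoding RNAs was followed in cultured mouse oligodendrocytes with and without Med23, a subunit of the Mediator complex that links transcription factors to RNA polymerase II. They are Malat1, Neat1, Meg3, Rian, Mirg, Miat, Sox2ot, H19, Gas5 and Snhg11, and they were picked by gene symbol, which gives 10 of the 24346 genes of the deposited table. Primary oligodendrocyte precursor cells (OPCs) were isolated from mouse brain with an antibody to CD140a, the PDGF receptor alpha, after endothelial cells and microglia had been removed on a lectin. They were expanded with PDGF-AA and NT-3 and then differentiated for 1 day in 15 nM T3 (thyroid hormone) with 10 ng/mL CNTF, which gives immature oligodendrocytes (iOLs). RNA from 4 Med23+/+ and 4 Med23-/- iOL libraries was sequenced. In the Med23-/- cells the floxed Med23 alleles were removed by Cre expressed from Olig1, a gene of the oligodendrocyte lineage, so cells of other lineages in a culture need not be deleted, and the study describes littermates with floxed Med23 and no Cre as the controls of this deletion. The sources used here do not say whether libraries of 1 genotype came from separate animals, so the p-values measure the spread between these libraries, which may be technical.

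Long noncoding RNAs are transcripts made much like messenger RNAs that are not known to be translated into a conserved protein. Some stay in the nucleus and organize it: Malat1 collects in nuclear speckles, which store splicing factors, and Neat1 is the scaffold of paraspeckles. Meg3, Rian and Mirg are transcribed from the maternal chromosome of the Dlk1-Dio3 imprinted domain, and H19 from the maternal chromosome next to Igf2. Sox2ot spans the gene of the stem cell factor Sox2, and Miat is a nuclear RNA of neural and other tissues. Gas5 and Snhg11 are host genes, whose introns carry small nucleolar RNAs (snoRNAs), the guides that direct chemical modification of other RNAs. In oligodendrocytes, which wrap axons in myelin, noncoding RNAs are among the factors that accompany the step from precursor to myelinating cell.

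Promoter sequences are shown for Gas5, the member that was lower in Med23-/- iOLs, and for Meg3, the called member with the highest fold change, because the study concerns Sp1, a factor that binds GC boxes. The GC box core GGGCGG was counted on either strand, in windows of 300 bases from 250 before to 50 after the start, taken from RefSeq on GRCm38.p6. The windows of 7 of the 10 members were matched by symbol, with 9 start sites in all. Capitals mark GGGCGG or its reverse complement CCGCCC, and TGACGTCA, the palindromic cAMP response element, which was added to the search after the sequences had been seen. The first Gas5 window, chr1:161034351-161034650, the second Gas5 window, chr1:161034916-161035215, and the first Meg3 window, chr12:109540746-109541045, lie on the plus strand and read 5′ to 3′ as follows.
Gas5, first start: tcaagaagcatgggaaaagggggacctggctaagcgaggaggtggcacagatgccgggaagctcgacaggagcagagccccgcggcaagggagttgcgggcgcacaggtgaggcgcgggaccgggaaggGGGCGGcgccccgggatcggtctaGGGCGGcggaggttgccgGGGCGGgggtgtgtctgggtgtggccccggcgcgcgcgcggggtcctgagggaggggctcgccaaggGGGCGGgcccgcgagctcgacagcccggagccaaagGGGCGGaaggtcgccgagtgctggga
Gas5, second start: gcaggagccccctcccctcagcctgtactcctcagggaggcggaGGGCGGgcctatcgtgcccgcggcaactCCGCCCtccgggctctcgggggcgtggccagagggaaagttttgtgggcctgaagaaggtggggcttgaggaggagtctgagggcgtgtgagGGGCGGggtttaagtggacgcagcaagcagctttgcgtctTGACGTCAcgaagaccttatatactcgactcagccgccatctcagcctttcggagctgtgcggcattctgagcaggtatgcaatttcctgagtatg
Meg3, first start: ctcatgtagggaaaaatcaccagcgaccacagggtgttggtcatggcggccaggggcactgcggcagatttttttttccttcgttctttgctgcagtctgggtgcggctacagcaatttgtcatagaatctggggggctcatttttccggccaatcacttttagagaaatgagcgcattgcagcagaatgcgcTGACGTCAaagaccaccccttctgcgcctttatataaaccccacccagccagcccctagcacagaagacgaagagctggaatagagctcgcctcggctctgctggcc
The first Gas5 window held 5 GGGCGG matches and had 73.7% G and C. The second Gas5 window held 3 matches and 1 TGACGTCA. The Meg3 window held 0 GGGCGG matches and 1 TGACGTCA, which lies upstream of a TATA-like run. Miat held 1 GGGCGG match, and the windows of Malat1, Rian, Mirg, Snhg11 and the second start of Meg3 held 0. Of the 32851 mouse windows of this length, 35.7% held GGGCGG, 2.71% held 5 or more matches, 10.7% held 3 or more, and 1.79% held TGACGTCA. These matches describe the letters of the windows and say nothing on binding.

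The deleted gene itself was checked first. Med23 stood at 12.7, 12.2, 12.6 and 12.6 FPKM in Med23+/+ replicates 1 to 4 and at 8.40, 7.93, 8.49 and 8.21 FPKM in Med23-/- replicates 1 to 4. FPKM counts the sequenced fragments of a gene per length of its transcript and per size of the library. Med23 fell by 0.55 on the log2 scale (adjusted p = 0.000353), and no Med23-/- library reached the Med23+/+ range. The ratio of mean FPKM was 0.658, so much Med23 RNA was still counted, and its source was not tested. The study reports the efficiency of the deletion from a western blot of primary OPCs. The 10 oligodendrocyte lineage markers summed to 3410 to 3721 FPKM in the Med23+/+ and 2195 to 2826 FPKM in the Med23-/- libraries, with 6 members lower and 2 (Cspg4 and Pdgfra) higher. Of 12 neuron markers 9 were higher and 0 lower in limma (10 and 0 at an unadjusted p under 0.05), where 15.9% of all genes tested were higher and 14.1% lower. Their sums were 296 to 324 against 412 to 493 FPKM, and Stmn2, a regulator of microtubules in growing axons, rose from a mean of 9.26 to 29.9 FPKM. Astrocyte markers summed to 114 to 166 against 93.8 to 155 FPKM, with 2 of 8 lower and 1 higher, and 8 microglia markers to 1.63 to 3.25 against 2.65 to 3.75 FPKM, none of them above the test's filter. The endothelial markers summed to 0.509 to 1.19 against 1.17 to 2.97 FPKM. Kdr was the 1 tested, and it passed the filter only through its Med23-/- level (means of 0.505 and 1.65 FPKM). It was called higher in limma (adjusted p = 0.0398), but its libraries overlapped between the genotypes. In bulk RNA, fewer cells of a type and less RNA per cell cannot be told apart. Xist, which is transcribed in female cells, stood at 182 FPKM in Med23+/+ replicate 1, at 209 FPKM in Med23-/- replicate 2 and under 0.4 FPKM in the other 6 libraries, so results are also given without those libraries where that ends a call.

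The genotypes were compared on log2(FPKM + 1) over the 12328 genes that averaged 1 FPKM or more, with limma and Benjamini-Hochberg adjustment, and a fold change on this scale understates the change of a low gene. Of the 10 noncoding RNAs 9 passed this filter, each with a mean above 1 FPKM in both genotypes, and Mirg did not. By an adjusted p under 0.05, 4 of the 9 were higher in Med23-/- iOLs (Neat1, Meg3, Rian and Sox2ot), where 15.9% of all genes tested were higher. Gas5 alone was lower, where 14.1% of all genes tested were lower. These shares of all genes tested also apply to the counts of every gene list given here. None of the 9 was past the threshold with a fold change above 2, which 2.98% of genes were upward and 1.75% downward. The libraries of the genotypes did not overlap for the same 4 RNAs upward and for Gas5 downward, against 16.3% and 15.3% of all genes tested. The median log2 fold change of the 9 was 0.43, beside -0.01 over all genes. The plot of FPKM per library and the plot of fold changes show these values.

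**Figure D1:**
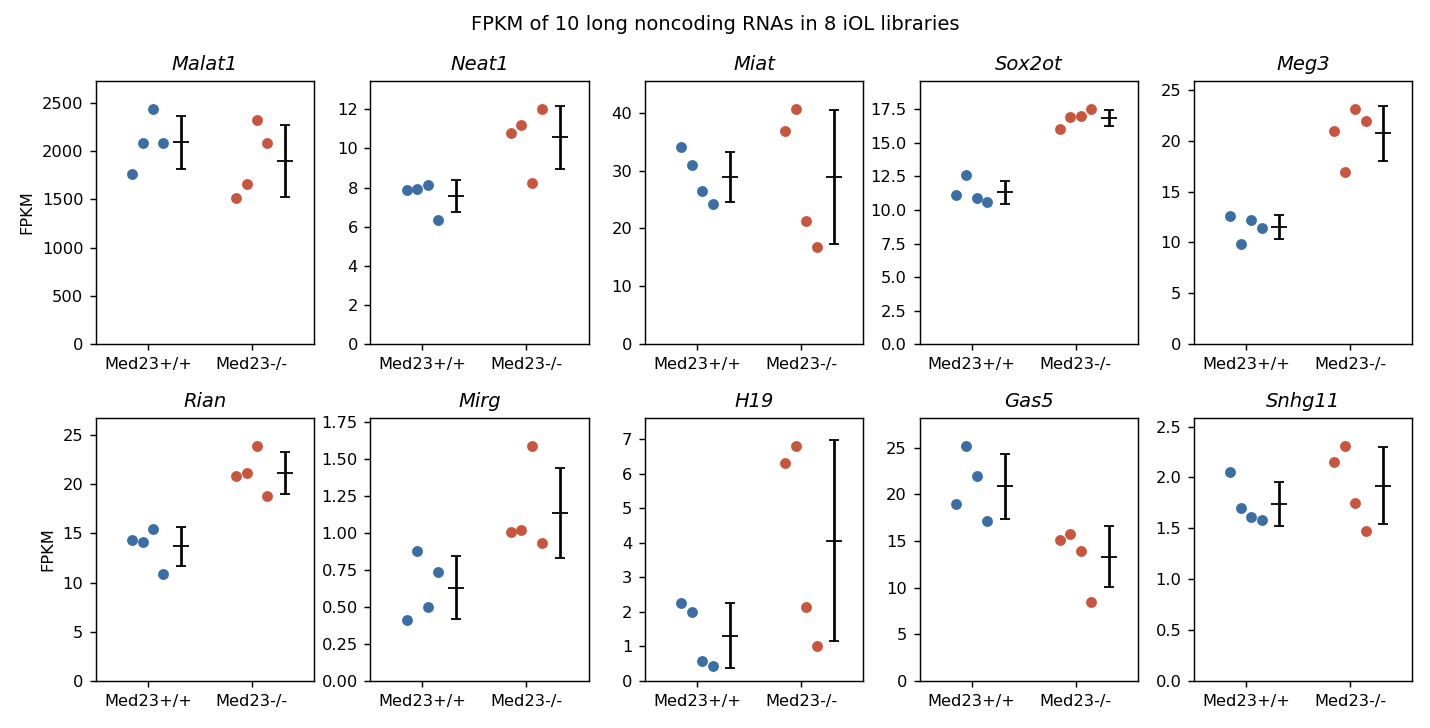
FPKM of the 10 long noncoding RNAs (y axis, from 0, its own scale per panel) in the 4 Med23+/+ (blue) and 4 Med23-/- (red) libraries, 1 point per library in the order of replicates 1 to 4, with the mean ± SD of each genotype in black. The genotypes do not overlap for Neat1, Sox2ot, Meg3, Rian, Mirg and Gas5.

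**Figure D2:**
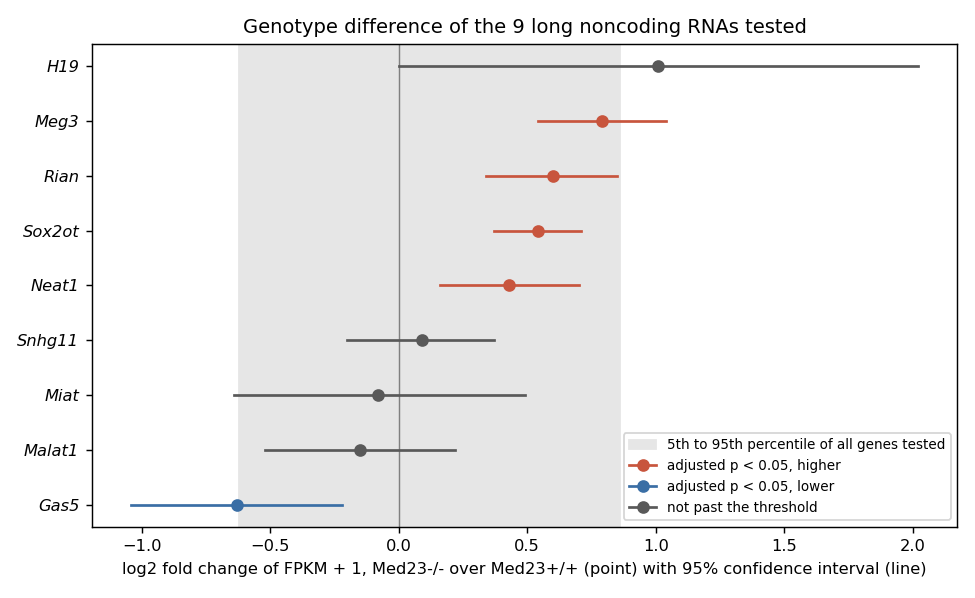
Log2 fold change of FPKM + 1, Med23-/- over Med23+/+ (x axis), of the 9 RNAs tested, with 95% confidence intervals; the grey band spans the 5th to 95th percentile of all genes tested, -0.62 to 0.86. Meg3, Rian, Sox2ot and Neat1 passed the threshold upward and Gas5 downward, and the interval of H19 is the widest.

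In Med23+/+ iOLs the levels ran from Malat1 (2090 FPKM) through Miat (28.9), Gas5 (20.9), Rian (13.7), Meg3 (11.5), Sox2ot (11.3), Neat1 (7.57), Snhg11 (1.74) and H19 (1.31) to Mirg (0.632 FPKM). Neighbours in this order whose libraries overlapped were Miat and Gas5, Rian and Meg3, Meg3 and Sox2ot, Snhg11 and H19, and H19 and Mirg. Malat1, Neat1 and the gap between Gas5 and Rian stood clear of their neighbours. In Med23-/- iOLs Malat1 (1898 FPKM) and Miat (28.9) again came first, followed by Rian (21.1), Meg3 (20.7), Sox2ot (16.9), Gas5 (13.3), Neat1 (10.6), H19 (4.06), Snhg11 (1.92) and Mirg (1.14 FPKM). Here the libraries of all neighbours from Miat down overlapped, other than those of Sox2ot and Gas5 and of Neat1 and H19. Gas5, whose level was above that of 66.6% of the genes tested in Med23+/+ iOLs, was above 51.9% in Med23-/- iOLs, while Meg3 went from 47.1% to 67.2%.

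Malat1 was one of the most abundant RNAs and did not pass the test. Its gene covers chr19:5795690-5802672 (mm10, minus strand) as a single exon block of 6983 bp in GENCODE vM21. Its level was 1760, 2081, 2433 and 2085 FPKM in Med23+/+ replicates 1 to 4 and 1516, 1663, 2326 and 2088 FPKM in Med23-/- replicates 1 to 4. The libraries overlapped, with replicate 3 the highest in both genotypes. It ranked 18th of all 24346 genes in Med23+/+ and 16th in Med23-/- iOLs, and stood above 99.9% of the genes tested in both. The means were 2090 ± 275 and 1898 ± 374 FPKM (SD, n = 4), and the log2 fold change was -0.15 (SE 0.17, 95% confidence interval -0.52 to 0.22, adjusted p = 0.536). Under quantile normalization the sign turned, to 0.11. Within replicates 1 and 2 the difference was -0.27 and within replicates 3 and 4 it was -0.03.

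The 13 listed proteins were splicing proteins of nuclear speckles, such as Srsf1 and Son, together with Sf1, Celf3 and Qk, which are known to bind Miat. All were tested, 1 was lower and 1 higher in limma (4 and 1 at an unadjusted p under 0.05), with a median log2 fold change of -0.13. Both that passed the adjusted threshold bind Miat, and the 3 that did so by unadjusted p alone were the speckle proteins Srsf2 (log2 fold change -0.25, adjusted p = 0.0666), Srsf6 (-0.24, adjusted p = 0.0795) and Son (-0.19, adjusted p = 0.111). Qk, an RNA-binding protein that oligodendrocytes need for myelin, fell from 712 ± 63.5 to 427 ± 33.5 FPKM (log2 fold change -0.73, adjusted p = 0.000687). Celf3, a splicing regulator of neural tissue, rose from 4.41 ± 0.981 to 9.11 ± 1.59 FPKM (log2 fold change 0.91, adjusted p = 0.00167).

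Neat1 was higher in Med23-/- iOLs. It lies 22.0 kb from Malat1 on the same strand, at chr19:5824708-5845478, as 1 exon block of 20771 bp, and its short and long isoforms are not separated in a value per gene. The libraries read 7.87, 7.94, 8.11 and 6.35 FPKM in Med23+/+ iOLs and 10.8, 11.2, 8.24 and 12 FPKM in Med23-/- iOLs. Every Med23-/- library was above every Med23+/+ library, with Med23-/- replicate 3 (8.24 FPKM) close to the highest Med23+/+ value (8.11 FPKM). The means were 7.57 ± 0.821 and 10.6 ± 1.62 FPKM, and the log2 fold change was 0.43 (SE 0.12, 95% confidence interval 0.16 to 0.70, adjusted p = 0.0248). The call is close to the threshold: the adjusted p was 0.0701 without Med23+/+ replicate 4, 0.0611 without Med23-/- replicate 1, 0.0598 without replicate 2 and 0.0577 without replicate 4 of that genotype. It was 0.0884 without the 2 libraries high in Xist. The log2 difference was 0.43 within replicates 1 and 2 and 0.42 within replicates 3 and 4. The difference of log2 levels between Neat1 and Malat1 ran from -8.15 to -7.63 in Med23+/+ and from -7.98 to -7.01 in Med23-/- libraries, and these overlapped.

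Paraspeckles are built from Neat1 and from RNA-binding proteins such as Nono and Sfpq. Of 16 paraspeckle proteins 15 were tested, and 0 were lower or higher by adjusted p in limma (0 at an unadjusted p under 0.05), with a median log2 fold change of -0.01. Of 17 coding genes next to or overlapping the members 9 were tested, with a median log2 fold change of -0.16. By adjusted p 4 of these genes were lower and 1 higher, where 14.1% and 15.9% of all genes tested were. Among those near Malat1 and Neat1, Frmd8 fell from a mean of 28.6 to 19.7 FPKM (log2 fold change -0.51, adjusted p = 0.00195), Ltbp3, a binding protein of latent TGF-beta, by 0.33 and Fam89b by 0.28 on the log2 scale.

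Meg3, Rian and Mirg are neighbours on chromosome 12, all on the plus strand, and all 3 stood higher in every Med23-/- library than in any Med23+/+ library. Meg3 spans chr12:109541001-109571726, Rian starts 32.2 kb beyond its end at chr12:109603940-109661716, and Mirg follows 68.0 kb further at chr12:109729764-109749460. Meg3, known as a growth-restraining noncoding RNA, read 12.6, 9.86, 12.2 and 11.4 FPKM in Med23+/+ and 21.0, 16.9, 23.1 and 21.9 FPKM in Med23-/- libraries. Its means were 11.5 ± 1.21 and 20.7 ± 2.66 FPKM, a 1.8-fold ratio. The log2 fold change was 0.79 (SE 0.11, 95% confidence interval 0.54 to 1.04, adjusted p = 0.000763), and 94.0% of the genes tested had a lower value. Rian, a host of many C/D box snoRNAs, read 14.3, 14.1, 15.5 and 10.9 FPKM in Med23+/+ and 20.8, 21.1, 23.9 and 18.8 FPKM in Med23-/- libraries. Its means were 13.7 ± 1.97 and 21.1 ± 2.1 FPKM, with a log2 fold change of 0.60 (SE 0.11, 95% confidence interval 0.34 to 0.85, adjusted p = 0.00394).

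Mirg, the host of a large microRNA cluster, was low. It read 0.409, 0.882, 0.502 and 0.735 FPKM in Med23+/+ and 1.01, 1.02, 1.59 and 0.931 FPKM in Med23-/- libraries, so the lowest Med23-/- value was just above the highest Med23+/+ value. With a mean of 0.885 FPKM over the libraries it was not tested by limma in the comparison of all genes. The means were 0.632 ± 0.216 and 1.14 ± 0.305 FPKM (n = 4), a difference of 0.39 in log2(FPKM + 1), with a two-sided exact permutation p of 0.0286, the smallest that 4 against 4 libraries can give. When all genes above 0 were tested its adjusted p was 0.0604, and without any 1 of the Med23-/- libraries the exact permutation p was 0.0571. Without the 2 libraries high in Xist its exact permutation p was 0.1, the smallest that 3 against 3 can give. Relative to each other the 3 RNAs overlapped between the genotypes in log2(FPKM + 1). The level of Rian minus that of Meg3 ran from -0.06 to 0.47 in Med23+/+ and from -0.21 to 0.30 in Med23-/- libraries. That of Mirg minus Meg3 ran from -3.27 to -2.53 and from -3.57 to -3.15, where the added 1 weighs on the low Mirg. In mean FPKM the ratio of Med23-/- over Med23+/+ was 1.80 for Mirg and 1.8 for Meg3. Within replicates 1 and 2 the log2 differences were 0.71 for Meg3, 0.53 for Rian and 0.31 for Mirg. Within replicates 3 and 4 they were 0.88, 0.66 and 0.47.

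**Figure D3:**
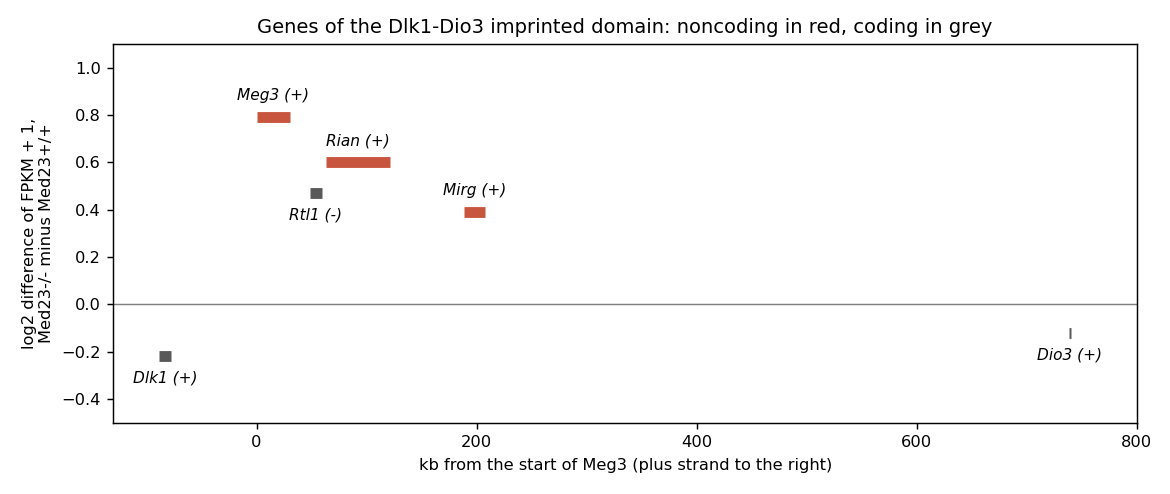
Genes of the Dlk1-Dio3 imprinted domain by distance from the start of Meg3 in kb (x axis, bars to scale, strand in brackets) and difference of mean log2(FPKM + 1), Med23-/- minus Med23+/+ (y axis); noncoding genes are red and coding genes grey. Meg3 (0.79), Rian (0.60), Mirg (0.39) and Rtl1 (0.47) lie above 0 and Dlk1 (-0.22) and Dio3 (-0.12) below it, where Mirg and all 3 coding genes stood at low levels; the flanking gene Begain (0.31) lies outside the range drawn.

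Dlk1, Rtl1 and Dio3, the coding genes of the domain that are expressed from the paternal chromosome, were all below the filter and not tested by limma. The list of 5 also held the flanking genes Begain and Wdr25, which were tested, and 0 of these 2 were called (Begain was higher at an unadjusted p under 0.05, with a log2 fold change of 0.31 and an adjusted p of 0.0948). Rtl1, a retrotransposon-derived gene on the opposite strand between Meg3 and Rian, read 0.427, 0.416, 0.401 and 0.407 FPKM in Med23+/+ and 0.993, 0.857, 1.18 and 0.796 FPKM in Med23-/- libraries. These did not overlap, and the difference of log2(FPKM + 1) was 0.47 (exact permutation p = 0.0286). Dlk1, a Notch-related inhibitor of differentiation, had means of 0.462 and 0.224 FPKM (exact permutation p = 0.429), and Dio3, which inactivates thyroid hormone, read at most 0.25 FPKM and was listed at 0 in 4 of the 8 libraries. Since the strand setting of the counting is not given in the sources used here, reads from Rtl1 and from a transcript on the other strand cannot be told apart. Meg3 also shares 1228 bp of exon with Gm26906 on the opposite strand. The summed neuron markers were likewise higher in every Med23-/- library than in any Med23+/+ library. They read 323, 324, 311 and 296 FPKM in Med23+/+ and 449, 412, 488 and 493 FPKM in Med23-/- replicates 1 to 4. No marker was at 0 in any library. Within Med23-/-, the sum was highest in replicate 4 (493 FPKM), where Rian and Mirg were lowest. Meg3, Rian and Mirg were each highest in replicate 3, where the sum was 488 FPKM, and Meg3 was lowest in replicate 2, as was the sum (412 FPKM). The part of these markers in the difference of the 3 RNAs was not tested.

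H19, the noncoding RNA of the Igf2 locus and precursor of miR-675, varied more between libraries than any other member. It lies at chr7:142575529-142578143 on the minus strand, 72.6 kb from Igf2. It read 2.26, 1.98, 0.574 and 0.429 FPKM in Med23+/+ and 6.3, 6.8, 2.13 and 1.01 FPKM in Med23-/- libraries. Replicates 1 and 2 were high and 3 and 4 low in both genotypes, so the genotypes overlapped. The means were 1.31 ± 0.943 and 4.06 ± 2.92 FPKM, and the log2 fold change was 1.01 (SE 0.45, 95% confidence interval -0.00 to 2.02), which did not pass the test (adjusted p = 0.122). Within replicates 1 and 2 the means were 2.12 and 6.55 FPKM, a ratio of 3.09, and within replicates 3 and 4 they were 0.501 and 1.57 FPKM, a ratio of 3.14. Both within-pair comparisons had the Med23-/- libraries higher without overlap. With this split as a covariate the adjusted p was 0.00273, and without Med23-/- replicate 4 it was 0.0278. The split is not a batch that the labels name and was known from earlier results of these data.

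The summed level of the 8 fibroblast and pericyte markers also varied along this split, though not every marker did. They summed to 13.4, 7.13, 2.16 and 2.73 FPKM in Med23+/+ and to 21.6, 14.1, 12 and 4.51 FPKM in Med23-/- replicates 1 to 4. Col1a1, a fibrillar collagen chain of connective tissue cells, read 6.66, 2.87, 0.298 and 0.327 FPKM and 10.4, 5.65, 3.41 and 1.44 FPKM. Rgs5, a pericyte marker, went the other way at a very low level. It read 0, 0.0508, 0.295 and 0.113 FPKM in Med23+/+ and 0.099, 0, 0.343 and 0.181 FPKM in Med23-/- replicates 1 to 4. Of these markers 4 were tested and 0 called by limma (0 at an unadjusted p under 0.05), and their part in the H19 values was not tested. Igf2, the growth factor gene beside H19, read 0.29, 0.40, 0.15 and 0.02 FPKM in Med23+/+ and 0.72, 0.55, 0.55 and 0.38 FPKM in Med23-/- libraries (exact permutation p = 0.0571). Of 14 genes of the imprinted network to which H19 and Meg3 belong, 11 were tested, 1 was lower and 0 higher in limma (1 and 3 at an unadjusted p under 0.05), with a median log2 fold change of 0.08. That gene was Impact, a regulator of translation under stress, which went from 18.4 to 14.6 FPKM (log2 fold change -0.32, adjusted p = 0.0168).

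**Figure D4:**
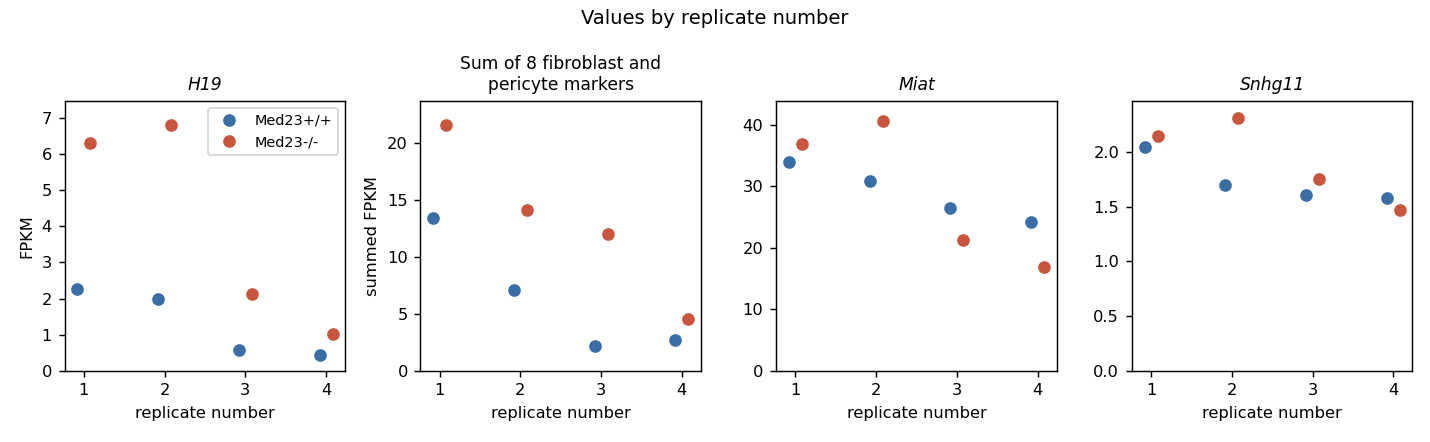
FPKM of H19, summed FPKM of 8 fibroblast and pericyte markers, and FPKM of Miat and Snhg11 (y axes, from 0) by replicate number (x axis, a name without order) in Med23+/+ (blue) and Med23-/- (red) libraries. H19 was highest in replicates 1 and 2 of each genotype (6.3 and 6.8 FPKM in Med23-/-), and Miat was higher in Med23-/- in replicates 1 and 2 and lower in 3 and 4.

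Sox2ot was higher in Med23-/- iOLs and varied least. It read 11.1, 12.6, 10.9 and 10.6 FPKM in Med23+/+ and 16.0, 16.9, 17 and 17.5 FPKM in Med23-/- libraries. The genotypes stood well apart, with coefficients of variation of 7.79% and 3.85%. The means were 11.3 ± 0.88 and 16.9 ± 0.649 FPKM, and the log2 fold change was 0.54 (SE 0.08, 95% confidence interval 0.37 to 0.71, adjusted p = 0.000808). Within replicates 1 and 2 the difference was 0.44 and within replicates 3 and 4 it was 0.64.

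Sox2ot spans 578350 bp at chr3:34104270-34682619 on the plus strand, with 11594 bp of exon. Sox2, which keeps neural progenitors in their state, lies inside an intron of it on the same strand, 546 kb from its start, and shares 0 bp of exon with it. Sox2 moved the other way: it read 207, 198, 229 and 234 FPKM in Med23+/+ and 146, 125, 101 and 158 FPKM in Med23-/- libraries. It fell by 0.72 on the log2 scale (SE 0.14, adjusted p = 0.00346), from 217 ± 17.2 to 133 ± 25.1 FPKM. The log2 level of Sox2ot minus that of Sox2 ran from -4.34 to -3.88 in Med23+/+ and from -3.12 to -2.51 in Med23-/- libraries, without overlap.

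Miat had the same mean in both genotypes and opposite differences in the replicates. The gene, at chr5:112213228-112229395 on the minus strand, read 34.0, 30.9, 26.5 and 24.2 FPKM in Med23+/+ and 36.9, 40.6, 21.3 and 16.8 FPKM in Med23-/- libraries. Replicates 1 and 2 of Med23-/- were the highest of all and replicates 3 and 4 the lowest. The means were 28.9 ± 4.37 and 28.9 ± 11.6 FPKM, with a log2 fold change of -0.08 (SE 0.25, 95% confidence interval -0.64 to 0.49, adjusted p = 0.85). Within replicates 1 and 2 Miat went from 32.5 to 38.7 FPKM (log2 difference 0.25), and within replicates 3 and 4 from 25.4 to 19 FPKM (-0.40). Neither pair overlapped, and the difference between them was not tested. Miat shares 2260 bp of exon with Gm26953 on the opposite strand.

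Gas5 was the member that was lower in Med23-/- iOLs. Its gene, at chr1:161034422-161038539 on the plus strand, holds 10 snoRNA genes of GENCODE vM21, and its transcripts are spliced, exported and degraded by nonsense-mediated decay. It read 19, 25.2, 22.0 and 17.2 FPKM in Med23+/+ and 15.1, 15.8, 13.9 and 8.51 FPKM in Med23-/- libraries. All 4 Med23-/- values lay under the lowest Med23+/+ value. The means were 20.9 ± 3.52 and 13.3 ± 3.31 FPKM, and the log2 fold change was -0.63 (SE 0.18, 95% confidence interval -1.04 to -0.22, adjusted p = 0.0281), with 4.81% of the genes tested below it. The adjusted p was 0.0746 without Med23+/+ replicate 2, 0.0692 without Med23+/+ replicate 3 and 0.0505 when all genes above 0 were tested. The difference was -0.48 within replicates 1 and 2 and -0.78 within replicates 3 and 4.

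Snhg11 did not pass the test. At chr2:158375638-158386145 on the plus strand, it carries 2 snoRNA genes and has the type protein_coding in GENCODE vM21. It read 2.05, 1.70, 1.61 and 1.58 FPKM in Med23+/+ and 2.15, 2.31, 1.75 and 1.47 FPKM in Med23-/- libraries, which overlapped. The means were 1.74 ± 0.219 and 1.92 ± 0.382 FPKM, with a log2 fold change of 0.09 (SE 0.13, 95% confidence interval -0.20 to 0.37, adjusted p = 0.657), and under quantile normalization it was -0.07.

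Other snoRNA host genes were set beside these 2. Of 20 listed, 15 were in the table and 14 were tested, with a median log2 fold change of -0.37. By adjusted p in limma 6 were lower and 0 higher (8 and 0 at an unadjusted p under 0.05). Over all genes tested 14.1% were lower and 15.9% higher by adjusted p. Snhg4 read 26.1, 29.5, 22.3 and 18.1 FPKM in Med23+/+ and 9.31, 17.4, 15.1 and 11.2 FPKM in Med23-/- libraries (log2 fold change -0.82, adjusted p = 0.0118). Snhg8 read 21.7, 26.1, 21.4 and 16.5 FPKM and 13.1, 14.1, 10.6 and 10.6 FPKM (log2 fold change -0.77, adjusted p = 0.00310). The other 4 were Snhg1 (-0.76), Snhg6 (-0.74), Snhg12 (-0.50) and Snhg3 (-0.48). The log2 fold changes of the 8 that did not pass ran from -0.38 for Snhg10 to 0.30 for Snhg9, whose interval spanned -2.72 to 3.32. The 10 factors of nonsense-mediated decay, the pathway that degrades spliced host transcripts, had 0 calls in limma (1 higher at an unadjusted p under 0.05) and a median log2 fold change of -0.09. Zbtb37, a zinc finger gene that overlaps Gas5 on the opposite strand without shared exon, rose from 6.42 to 8.45 FPKM (log2 fold change 0.34, adjusted p = 0.0270).

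**Figure D5:**
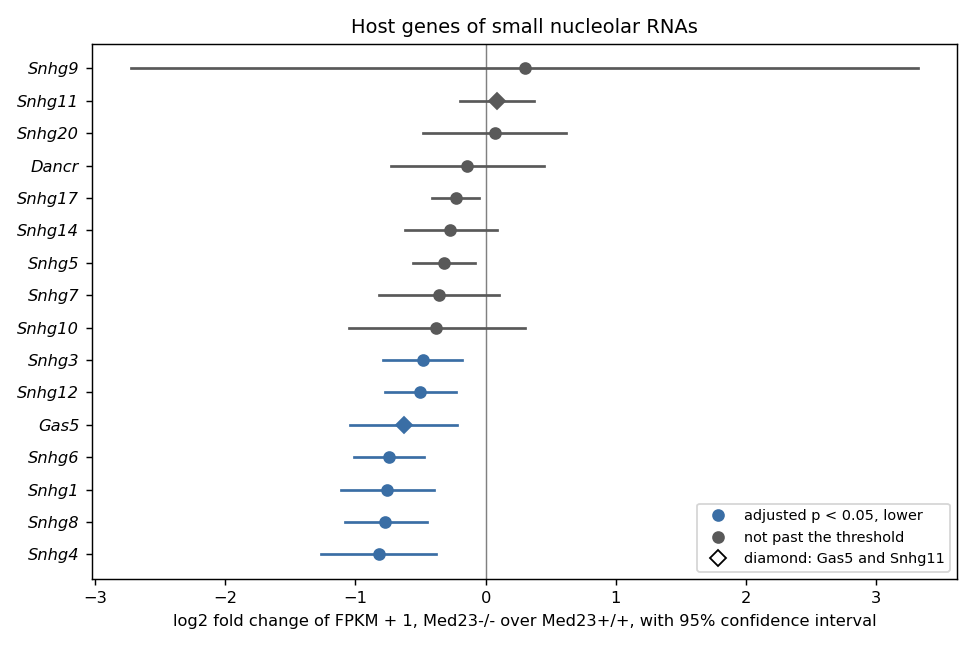
Log2 fold change of FPKM + 1, Med23-/- over Med23+/+ (x axis), with 95% confidence intervals, of the 14 other snoRNA host genes tested (circles) and of Gas5 and Snhg11 (diamonds); blue marks an adjusted p under 0.05. Gas5 (-0.63) lies among the 6 host genes that were lower, and Snhg11 (0.09) does not.

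The small RNAs that lie inside the members cannot be read from these libraries. GENCODE vM21 places 48 such genes there, 23 microRNA and 25 snoRNA genes, of which 15 microRNAs are in Mirg and 13 snoRNAs in Rian. Of the 48, 25 had a row in the table and 1 was above 0 in any library. In a list of 47 small RNA names, 34 were in the table and 33 of those were at 0 in every library.

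Of 29 other regulatory noncoding RNAs, 26 were in the table and 21 tested, with a median log2 fold change of 0.07. By adjusted p 3 were lower and 3 higher, near the 14.1% and 15.9% of all genes tested. Past a 2-fold change there were 2 in each direction, where 1.75% of all genes tested were lower and 2.98% higher. Nkx2-2os, transcribed beside the oligodendrocyte factor Nkx2-2, fell from 13.4 ± 3.62 to 4.57 ± 2.29 FPKM (log2 fold change -1.44, adjusted p = 0.00607). Mir17hg, the host of a proliferation-linked microRNA cluster, fell from 18.2 to 8.07 FPKM (log2 fold change -1.13, adjusted p = 0.0116). Pantr1, a noncoding RNA beside the neural gene Pou3f3, read 24.0, 28.0, 22.4 and 23.7 FPKM in Med23+/+ and 60.2, 62.9, 54.2 and 70.3 FPKM in Med23-/- libraries (log2 fold change 1.30, adjusted p = 3.4e-05). Mir124a-1hg, the host of a neuronal microRNA, rose from 4.61 to 12.1 FPKM (log2 fold change 1.24, adjusted p = 0.000270).

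The genes whose log2 levels followed each member most closely over the 8 libraries were found by Pearson's r, as a description that includes the genotype difference and for which no test was made. For Meg3 they were Amph (0.990), Cyth3 (0.988) and Atp2b2 (0.987). For Rian they were 4933427D14Rik (0.986), Pcdhac1 (0.984) and Wdr5b (0.980), and for Sox2ot Abhd17b (0.992), Dock1 (0.991) and Entpd1 (0.988). For Gas5 they were Bcas1os2 (0.967), Pak3 (0.964) and 4931406C07Rik (0.963), and for Neat1 Idh3g (0.959), Apobec3 (0.947) and Med19 (0.943). For H19 they were Dusp26 (0.994), Col18a1 (0.965) and Vmac (0.961), for Miat Dgkq (0.986), Ifi30 (0.986) and Arfrp1 (0.961), for Snhg11 2810459M11Rik (0.974), Tusc2 (0.964) and Dpysl4 (0.961), and for Malat1 Tram1 (0.983), Hnrnph2 (0.972) and Nek7 (0.972).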

How the data were processed

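RNA-seq libraries of 4 Med23+/+ and 4 Med23-/- iOL samples, grouped by the labels, were compared. Per the study's methods, FastQC and Cutadapt were applied to the reads before default Tophat2 alignment to mm10. The authors then used cuffdiff, with its options for fragment bias (-b) and multi-mapped reads (-u). Tool versions, annotation, library normalization, strand setting and whether poly(A) RNA was selected are not given in the sources used here. The deposited table holds FPKM per library, which keeps no read counts, so depth is unknown. Libraries had 15941 to 16469 genes above 0. The authors' columns of genotype FPKM, fold change, p, q and status were not used, and 0 library columns were left out.

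Values were taken as log2(FPKM + 1). The 12328 genes that averaged 1 FPKM or more were tested with limma 3.58.1 in R 4.3.3 (lmFit, eBayes with trend), adjusted by the Benjamini-Hochberg method, with a threshold of 0.05. For single values the exact permutation test was two-sided. On simulated data for the 12328 genes the limma step recovered 198 of 200 genes changed by 1.5 on the log2 scale, with 10 others called. The changed genes were drawn only from those at higher levels, and 1.5 is larger than the change of any member. This recovery therefore does not give the sensitivity for low members or for changes of the size seen here. Coordinates are from GENCODE vM21 and promoters from RefSeq on GRCm38.p6, matched by symbol. Python 3.11.15, pandas 2.3.3, numpy 2.4.6 and matplotlib 3.10.9 were used.

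The members, lists and tests were chosen with earlier results of these data known. Every member is named, and of each other list the called genes with the lowest and highest fold change, at most 2 in each direction, the coding neighbours of members, and the 3 genes most like each member; Snhg1, Snhg3, Snhg6, Snhg12, Snhg9, Snhg10, Ltbp3, Fam89b, Stmn2, Srsf2, Srsf6, Son, Begain, Col1a1 and Rgs5 were named after their values were seen. Alternatives were a pseudocount of 0.1, no filter and a filter of 5 FPKM, quantile and median-ratio scaling, no trend, a block, the replicate split as a covariate, each library left out and, added after seeing the data, the libraries with Xist under 10 FPKM.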

Additional observations from a re-analysis of the deposited data

Results flagged for a closer look

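Within a genotype of 4 libraries, 1 library stood far from the other 3 in 2 of the 20 groups of values, and chance gives such a gap in about 1 of 20 groups. Med23+/+ replicate 4 had 6.35 FPKM of Neat1, below the other 3 at 7.87 to 8.11 FPKM. Med23-/- replicate 3 had 1.59 FPKM of Mirg, above the other 3 at 0.931 to 1.02 FPKM.

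Snord47, a snoRNA gene inside Gas5, was listed at 12256 FPKM in Med23-/- replicate 1 and at 0 in the other 7 libraries. No other small RNA gene inside the members was above 0.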

How the results depend on the processing

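Meg3, Rian and Sox2ot stayed higher in Med23-/- iOLs in every other setting tried, in each fit with 1 library left out and in the libraries low in Xist, with adjusted p from 0.000482 to 0.0194. Neat1 was under 0.05 in 8 of 9 settings with adjusted p of 0.0238 to 0.0884, and in 4 of 8 fits with 1 library left out. Gas5 was under 0.05 in 8 of 9 settings (0.00613 to 0.0505) and 6 of 8 fits. With all genes above 0 tested, 0 members were lower, against 1 in the main comparison, and without 1 library the number ran from 0 to 1. With a filter of 5 FPKM, 1281 genes of the table were higher, against 1957, since fewer genes were tested. Under quantile normalization the log2 fold change was 0.11 for Malat1 and -0.07 for Snhg11, and the cause was not tested. Without 1 library that of Miat ran from -0.27 to 0.14. For Mirg the exact permutation p was 0.0571 without any 1 of the Med23-/- libraries and 0.0286 without any 1 of the Med23+/+ libraries. Whether the replicate numbers pair the samples could not be decided. Correlations of the deviations ran from -0.10 to 0.16 for the same number and from -0.18 to 0.16 for other numbers. Not every library was closest to its own number. Weak correlations over all genes cannot exclude a shared preparation, and H19 followed the split of replicates in both genotypes. With the replicate block, 1835 genes were lower and 2085 higher, and H19 was called as well (adjusted p = 0.00512). Of 73 values recomputed with all 8 libraries under other settings, 67 kept direction and side of the threshold. Mirg was not fitted under quantile normalization, no trend, the block or the filter of 5 FPKM, and H19 and Snhg11 lay below that filter. Read counts were not used, so counting error is not known, and it weighs most on Mirg, H19 and Snhg11, the lowest of the members.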
